A study of Mus musculus with 32 samples.

Results

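In XR-seq of the 4 mouse organs, most genes gave more excised fragments from the transcribed strand (TS) than from the non-transcribed strand (NTS), and the genes described here did the opposite. They were chosen from the XR-seq read counts themselves: the NTS reads of a gene, summed over the 8 XR-seq libraries, had to be at least 2 times its summed TS reads, with at least 500 reads on both strands together. Of the 25058 genes counted, 17230 had at least 500 reads, and 1507 of these (8.75%) met the ratio. The strand ratio in XR-seq is therefore a description of how the genes were chosen and was not tested. Damage-seq, RNA-seq and gene positions were not used in the choice.

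All animals were wild-type C57BL/6J female mice of 6 or 7 months, with no transgene or deletion. One group received cisplatin at 10 mg per kg by intraperitoneal injection, and its kidney, liver, lung and spleen gave 2 Damage-seq, 2 XR-seq and 2 RNA-seq libraries per organ. A control group received saline and gave 2 RNA-seq libraries per organ. Organs were taken 4 h after injection by the stated schedule, whereas a sample tag says 2 h, and the control and cisplatin labels of lung and spleen RNA-seq are those that the submitters corrected by exchanging them. Whole organs are mixtures of cell types, so each value is an average over them. In each organ, all 5 of 5 marker genes looked up for it had their highest RNA level in that organ. Reads on genes per library ranged from 1571167 to 6441367 in Damage-seq, from 10658675 to 59779770 in XR-seq, and from 15619474 to 162270280 in RNA-seq.

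Cisplatin joins neighbouring guanines on one DNA strand, and nucleotide excision repair cuts out a short oligomer around such an adduct. Repair that is coupled to transcription starts where an RNA polymerase stalls, which it does at adducts in the strand it reads as template, so it acts on the TS of an active gene. Global repair acts on both strands. The strands are named after the annotated direction of each gene. Where a second gene is transcribed in the opposite direction over the same DNA, the template of one gene is the NTS of the other, and the same reads can be counted for both. Polymerases can also run on past the annotated end of a gene.

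Windows of 120 bases from 4 of the genes show what is counted. Each lies within an overlap with a gene on the other strand and outside annotated exons, and each is written 5′ to 3′ along the strand of the named gene, from GRCm38 (mm10) in RefSeq. Capitals mark GG, the dinucleotide at which an adduct on this strand is read. For the named gene these are NTS positions, and for its partner on the other strand the same positions lie on the TS. Every cc is a GG of the opposite strand, that is, of the TS of the named gene.
Lrrc4, chr6:28746729-28746848, minus strand: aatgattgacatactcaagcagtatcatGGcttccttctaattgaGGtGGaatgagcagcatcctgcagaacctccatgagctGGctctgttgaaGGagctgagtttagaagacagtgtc
2810425M01Rik, chr10:77501164-77501283, plus strand: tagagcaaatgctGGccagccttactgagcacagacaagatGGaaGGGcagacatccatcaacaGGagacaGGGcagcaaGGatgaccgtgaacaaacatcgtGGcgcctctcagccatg
Ulk4, chr9:120957881-120958000, minus strand: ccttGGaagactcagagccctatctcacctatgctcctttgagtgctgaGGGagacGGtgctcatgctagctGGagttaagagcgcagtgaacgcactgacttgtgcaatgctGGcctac
1700048M11Rik, chr16:92310532-92310651, minus strand: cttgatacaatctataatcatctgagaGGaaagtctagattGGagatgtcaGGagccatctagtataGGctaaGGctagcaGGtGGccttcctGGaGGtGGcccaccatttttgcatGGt
The first windows lie in Lrrc4 inside Snd1 and in 2810425M01Rik within its overlap of 29122 bases with Fam207a. The others lie in Ulk4 where it overlaps Ctnnb1 at their ends, and in 1700048M11Rik inside Smim11. With runs of 3 counted as 2 overlapping pairs, the windows held 5, 9, 6 and 11 GG against 4, 6, 6 and 6 CC. Over whole genes the strands were more even: the median log2 of NTS GG over TS GG was 0.01 in the 1507 genes and 0.04 in the other 15711 genes with 500 reads and a position, and 1465 of the 1507 also had an NTS count of at least 2 times the TS count when reads were divided by the GG of their strand.

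The ratio of summed NTS to TS reads had a median of 6.95 and reached 789. Just inside the limit lay Rapgef3os2 and 4930534D22Rik, both at 2.01, and just outside it lay Trim80, with 1055 TS and 2107 NTS reads, and Cd1d2, with 258 TS and 515 NTS reads. Within single libraries, between 1168 and 1354 of the 1507 genes met the ratio, and 720 met it in all 8. By organ, 932 genes met it in all 4 organs, 380 in 3, 146 in 2 and 49 in 1. Over their pooled reads, 81.8% to 88.0% of the fragments of these genes came from the NTS, against 8.08% to 14.0% for the other genes. They held 17.5% of all NTS reads counted on genes and 0.433% of all TS reads.

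**Figure D1:**
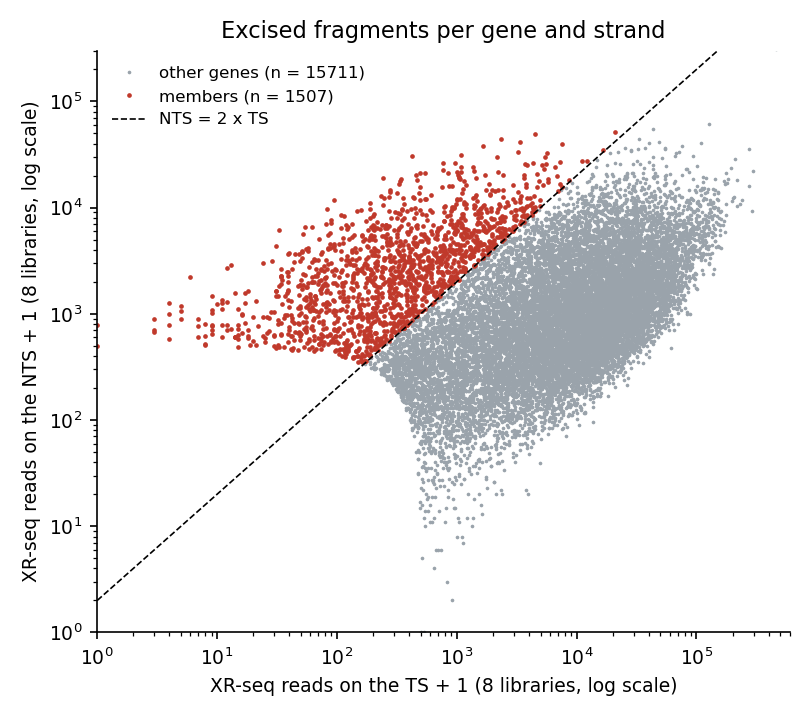
XR-seq reads on the NTS against reads on the TS for each gene with at least 500 reads, summed over 8 libraries, on log axes with 1 added. The 1507 members lie above the dashed line, which marks an NTS count of 2 times the TS count and was used to choose them, and the 15711 other genes lie below it.

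The group was rich in genes annotated as antisense. It held 870 protein-coding genes, 380 antisense genes, 101 lincRNA genes, 50 processed transcripts, 45 TEC genes (transcripts awaiting experimental support), 25 processed pseudogenes and 1 miRNA. As a share of each type with at least 500 reads, these were 5.70% of protein-coding genes, 54.3% of antisense genes and 15.6% of lincRNA genes. Genes whose symbol marks them as opposite-strand transcripts of another gene (ending in os or as) numbered 206 with enough reads, of which 89 (43.2%) were in the group, and for 82 of the 89 the partner found by position was the gene in their name. The single miRNA was Mir195a, whose mature products are printed from RefSeq with the seed (bases 2 to 8) in capitals because no other miRNA entered the group.
mmu-miR-195a-5p, chr11:70235062-70235082, plus strand: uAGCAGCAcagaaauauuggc
mmu-miR-195a-3p, chr11:70235100-70235121, plus strand: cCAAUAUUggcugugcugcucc
Mir195a had 41 TS and 613 NTS reads, with NTS values between 1.00 and 6.95 CPM, reads scaled to the library total on genes, and no TS read in 6 of the 8 libraries. The end of 0610010K14Rik on the other strand lies 71 bases away. The mean RNA level of Mir195a in poly-A selected RNA was 0.013 RPKM, a count scaled to library size and exon length.

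Positions came from GENCODE M21. Of the 1507 genes, 1053 (69.9%, 95% Wilson interval 67.5% to 72.1%) overlapped an annotated gene on the other strand, against 7040 of the 15711 other genes (44.8%, 44.0% to 45.6%). The difference was wider for a protein-coding gene on the other strand (59.0% against 20.8%) and for genes lying wholly under other-strand genes (30.8% against 2.99%). With neighbours within 10 kb included, 93.8% against 75.2% had an annotated gene on the other strand. Overlap with a gene on the same strand went the other way, at 10.6% against 22.0%. Members were also shorter, with a median span of 10431 bases against 25547, and the part of gene length in these shares was not tested. Intervals cover counting error only, and neighbouring genes are not independent.

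The partner of a gene was defined as the overlapping other-strand gene with the most TS reads or, without one, such a gene within 10 kb. Among the 1507 genes, 426 (28.3%) lay inside their partner, 324 (21.5%) overlapped it at the 3′ ends, 133 (8.83%) at the 5′ ends, and 59 (3.92%) contained it. A further 290 (19.2%) had no overlap but a partner whose 3′ end faced their own 3′ end within 10 kb, while 45 (2.99%) had a partner starting away from them. The largest contrast with other genes was for those inside a partner, 1.92% of the others. The 3′ ends faced each other within 10 kb in 14.2% of the others, and the starts in 11.1%. Overlapping or nearby genes with no counts in the tables used here made up 111 and 26 of the group, and 93 (6.17%) had no annotated other-strand gene within 10 kb, against 24.8% of the others. The 1277 genes with a partner had 1199 different partners, and 145 of them shared one with another member.

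**Figure D2:**
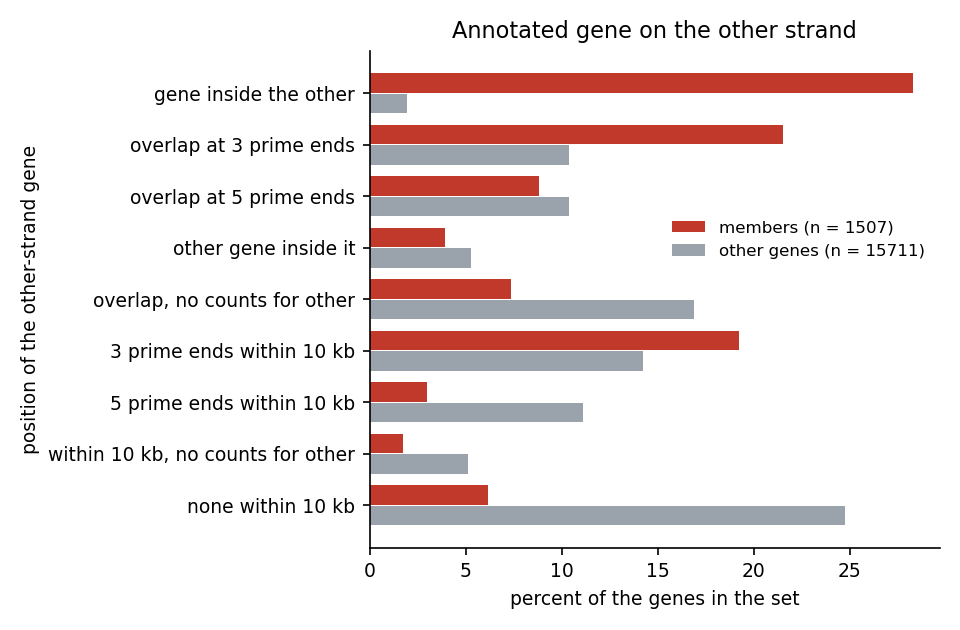
Percent of genes in each arrangement with an annotated gene on the other strand, for the 1507 members and the 15711 other genes with at least 500 XR-seq reads. Genes inside another gene make up 28.3% of members and 1.92% of other genes, and genes with none within 10 kb 6.17% and 24.8%.

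For genes inside a partner, the NTS reads could be set beside the TS reads of the surrounding gene, which lie on the same strand. The NTS count exceeded the partner's TS count in 0 of the 426 genes and in 1 of the 301 other genes inside a partner (Anxa1, named after its values were seen), so there not every read was counted for both. When the partner's TS reads were spread evenly over its GG sites, the nested gene had a median of 1.05 times the reads that its stretch would hold (quartiles 0.858 and 1.35), and 361 of 426 (84.7%) lay within 2-fold. Among those 301 other genes the median was 0.839 times and 66.4% lay within 2-fold. Members and other genes were split by their own NTS and TS counts, so this difference is partly set by the choice. Across the 426 genes the log10 values correlated with r = 0.90, as a description over genes that mostly share the reads being compared.

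**Figure D3:**
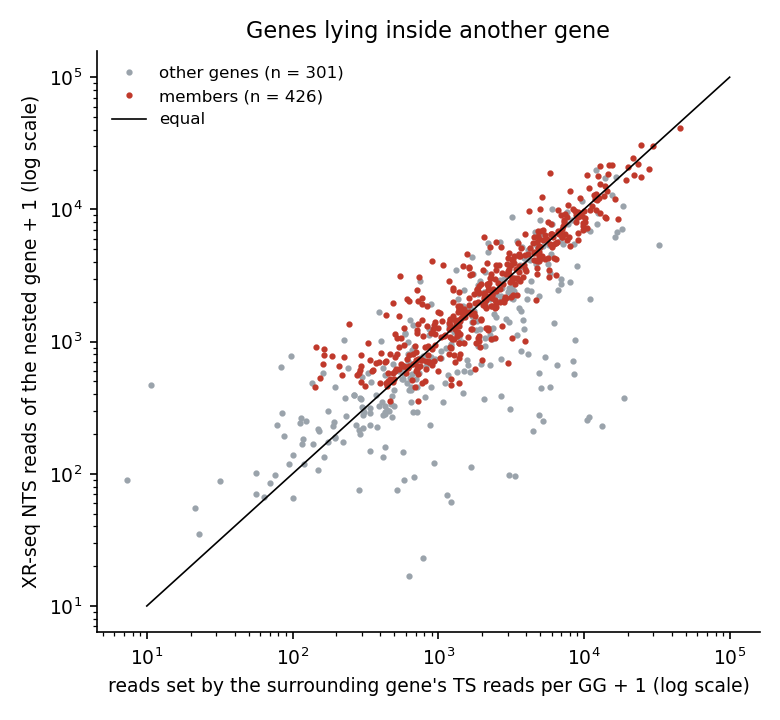
NTS reads of genes lying inside another gene, against the reads that stretch would hold if the surrounding gene's TS reads were even over its GG sites (log axes, 1 added, 8 libraries summed). The 426 members follow the line of equality, with a median ratio of 1.05, and the 301 other genes lie lower, with a median of 0.839. The NTS counts shown also entered the choice of members, so this difference is partly set by it.

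Lrrc4, which encodes a synaptic membrane protein, is the most read of the nested genes. It spans chr6:28661831-28831747 on the minus strand within Snd1, whose product is a nuclease subunit of the RNA silencing machinery. Its NTS gave 50.1 and 40.0 CPM in the kidney libraries, 199 and 147 in those of liver, 98.1 and 78.2 for lung, and 292 and 297 for spleen, while its TS stayed between 5.75 and 16.3 CPM. Kidney was the lowest organ and spleen the highest, with no overlap between organs. In RNA-seq Lrrc4 had between 0.011 RPKM (liver) and 0.45 RPKM (spleen) as organ means, and Snd1 had between 7.40 (kidney) and 12.9 (spleen). Col10a1, a collagen of growing cartilage, lies inside Nt5dc1 and had 82 TS against 9654 NTS reads, with NTS values between 23.6 and 37.3 CPM in every library.

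The genes with the most extreme ratios among protein-coding members were short and little expressed. Gpr151, an orphan receptor of the brain, had 5 TS and 2211 NTS reads. Actl7a, a testis actin-like gene, had 3 TS and 1003 NTS reads. The next were Pcp2, a Purkinje cell gene inside Pet100, with 11 and 2709 reads, Ube2d2b inside Evi5, with 4 and 1057, Gpr22 inside Cog5, with 9 and 1241, and Col10a1. The RNA level of these 6 was at most 0.12 RPKM averaged over the 16 RNA-seq libraries.

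The most read members were mainly genes that overlapped or neighboured a partner over part of their span. Agrp, an appetite-stimulating neuropeptide gene, has an annotated span of 70696 bases on chromosome 8 that contains Ripor1, and it had 153 to 197 NTS CPM against 59.3 to 117 TS CPM. Megf11 had 7546 TS and 39914 NTS reads and ends 6094 bases from the end of Rab11a, a recycling endosome GTPase at 37.9 RPKM. Ulk4 overlaps the last 5157 bases of Ctnnb1, which encodes beta-catenin and had 83.3 RPKM. D030028A08Rik overlaps Sp2 and Lysmd4 overlaps Mef2a at the 3′ ends, Cdh23 contains Vsir, Tulp2 contains Nucb1, and Slc5a10 contains Fam83g. 4932443L11Rik overlaps 40316 of the 44691 bases of Evi5l, and 2810425M01Rik 29122 of the 29125 bases of Fam207a, both with the starts included. 2810425M01Rik had 94.8 to 201 NTS CPM against 3.57 to 13.2 TS CPM, with the ranges of both strands far apart in every organ.

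CT010467.1, annotated as an rRNA on chromosome 17, was the second most read member, with 4470 TS and 49329 NTS reads. Its NTS values were 84.3 and 52.3 CPM in the kidney libraries, 344 and 541 in those of liver, 50.9 and 35.4 for lung, and 26.1 and 16.9 for spleen. Liver stood above all other libraries. Its RNA level was 455 to 1044 RPKM as organ means. In kidney, control libraries had 255 and 188 RPKM and cisplatin libraries 1386 and 1384, a change that was not called (adjusted p = 0.0632, edgeR). Spleen had 295 and 299 in control and 1138 and 2442 with cisplatin, and lung 321 and 325 against 388 and 787. Liver went the other way, with 937 and 1539 in control and 484 and 889 with cisplatin. RNA was selected by poly-A, so these values are not a measure of total rRNA. Ribosomal RNA sequences occur in many near-identical copies, and it cannot be told from these counts which copy a read came from.

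The group was little expressed. The median RNA level over the 16 libraries was 0.11 RPKM in the 1507 genes and 4.81 RPKM in the others, and 17.7% against 77.0% reached 1 RPKM. By organ, the median of the group was 0.023 RPKM in liver, 0.060 for kidney, 0.082 for lung and 0.087 for spleen, with single libraries of an organ between 0.010 and 0.023 in liver and between 0.082 and 0.093 in spleen. The library ranges of lung and spleen overlapped with those of kidney or each other, and liver lay below all of them. Partners were expressed far above the members, with a median of 5.89 RPKM, while the partners of other genes had 3.11 RPKM. The partner was the higher of the pair for 1145 of 1277 members (89.7%), against 3443 of 8368 other genes with a partner (41.1%). For members inside a partner this was 400 of 426. These shares also carry the low RNA level of the members themselves, and partners were picked by their XR-seq TS reads. The RNA-seq kit did not mark strand, so reads from overlapping exons of a member and its partner cannot be told apart.

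Over organs, the NTS of the members with an overlapping partner was highest in the organ where the partner's RNA was highest in 343 of 938 (36.6%), close to the 34.8% of other genes. For partners lying within 10 kb the shares were 148 of 335 (44.2%) and 1266 of 3956. The corresponding share for a member's own RNA was 32.8% in the first set and 32.4% in the second, and other genes had 31.3% and 33.0%. With 4 organs these shares describe the sets and were not tested.

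Some members were highly expressed, and these showed the strands organ by organ. The 5 protein-coding members with the highest mean RNA level were Sftpc, Rps2, Sftpb, S100g and Arg1. Sftpc and Sftpb encode surfactant proteins of the lung alveolus, S100g a calcium-binding protein of kidney and gut, Arg1 the arginase of the hepatic urea cycle, and Rps2 a ribosomal protein. Arg1 had 750 RPKM in liver and at most 1.5 elsewhere, and its end lies 1540 bases from the end of Med23, a Mediator subunit at 1.92 to 6.10 RPKM. In liver Arg1 had 12.6 and 16.5 TS CPM against 11.3 and 12.1 NTS CPM, and in the other organs 0.11 to 0.89 TS CPM against 12.1 to 24.2 NTS CPM. The NTS level was thus in one range in every organ, and only liver had a TS level of that size.

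Sftpc had 14715 RPKM in lung, where its TS had 1.42 and 0.61 CPM and its NTS 0.47 and 0.70 CPM. In liver, at 3.85 RPKM, its TS had 0.40 and 0.21 CPM and its NTS 6.30 and 7.32 CPM. Sftpd, a collectin of the same surfactant, behaved alike and was singled out after its values were seen: in lung, at 409 RPKM, it had 0.82 and 1.29 TS CPM against 0.50 and 0.23 NTS CPM, and in liver, at 0.48 RPKM, it had 0.38 and 0.43 TS CPM against 23.4 and 33.1 NTS CPM. No annotated other-strand gene lies within 10 kb of Sftpd. The nearest facing it is Mbl1, a mannose-binding lectin, whose end is 12.6 kb away and which had 149 RPKM in liver and 3.07 or less in the other organs. S100g, inside Ctps2, had 749 RPKM in kidney, where NTS over TS was 0.461 over both libraries, with 46 and 43 TS reads against 0 and 41 NTS reads, and the ratio was 8.60 in lung, 14.2 in liver and 80.0 in spleen.

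Over the 30 members that reached 100 RPKM in some organ, 28 had a lower NTS to TS ratio in the organ with their highest RNA than in the other 3 organs together, and in 9 of the 30 the NTS was at or below the TS there. Among 1005 other genes that reached 100 RPKM, 543 (54.0%) had a lower ratio in their top organ, and 98.5% had an NTS at or below the TS there. The 2 exceptions among members were Rps2, at 2.26 in spleen against 2.24 elsewhere, and Alas2, the first enzyme of heme synthesis in red cell precursors, at 15.2 in spleen against 6.89. Because a high NTS total chose the members, this is a description.

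**Figure D4:**
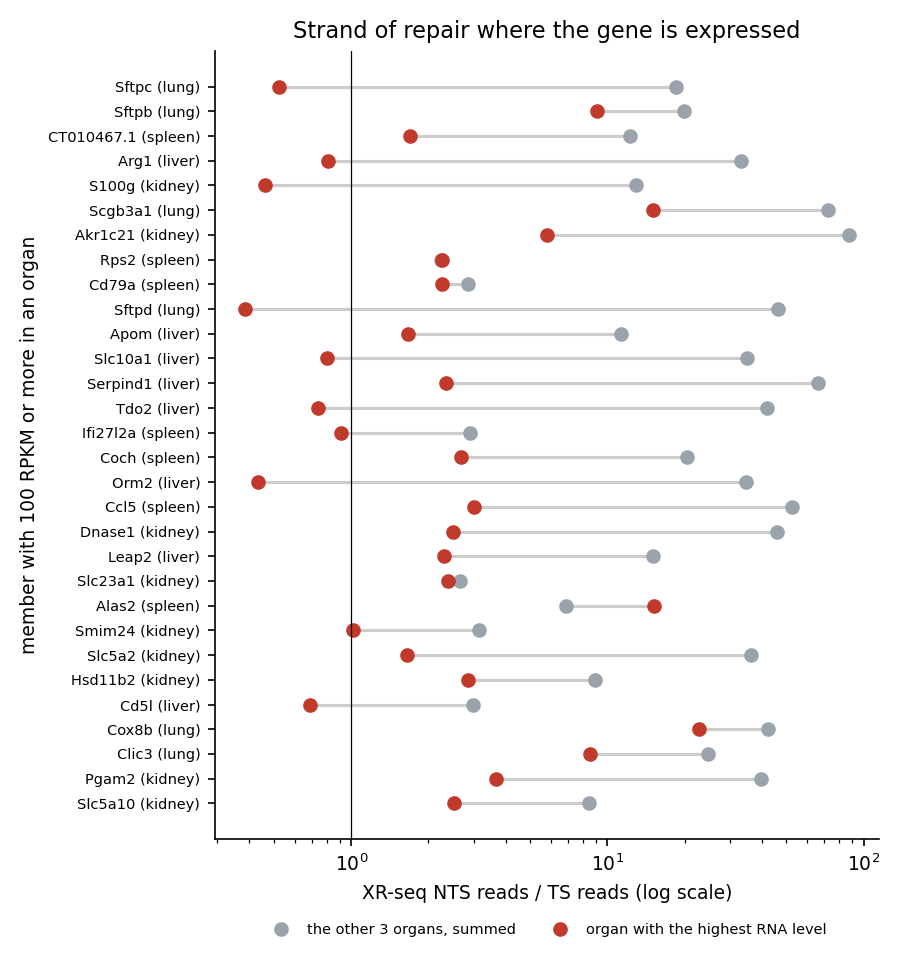
XR-seq NTS over TS reads (log axis) for the 30 members with at least 100 RPKM in an organ, in the organ with their highest RNA level (red) and in the other 3 organs summed (grey). The red point lies to the left in 28 of 30, and in 9 it lies at or left of the line at 1.

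Across the whole group, 101 members had an NTS count below the TS count in both XR-seq libraries of one organ and above it in both libraries of another, and 42 had a TS count of at least 2 times the NTS count in an organ with at least 50 reads (19 in spleen, 17 in kidney, 11 in lung and 3 in liver). Of these 42, 15 (35.7%) had their highest own RNA level in such an organ. The examples that follow were chosen after their values were seen. Oit3, a liver-specific gene ending 982 bases from the end of Pla2g12b, had 31.7 and 45.2 NTS CPM in liver and at most 2.81 in the other organs, with NTS over TS at 8.50 in liver and 0.209 to 0.489 elsewhere. Pla2g12b, a secreted phospholipase-like gene, had 55.3 RPKM in liver and at most 0.57 elsewhere. Noxa1, an NADPH oxidase activator overlapping the end of Entpd8 by 50 bases, had ratios of 21.9 in liver and 6.78 in kidney, where Entpd8 had 34.0 and 5.75 RPKM, and ratios of 0.275 in lung and 0.094 in spleen, where it had 0.34 and 0.03 RPKM.

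Rapgef4os1 went the other way. It lies inside Rapgef4, which encodes a cyclic AMP-activated exchange factor and had 22.6 RPKM in liver against 1.16 to 2.75 in the other organs. In liver Rapgef4os1 had 33.6 and 28.3 TS CPM against 2.35 and 3.16 NTS CPM, and in lung it had 2.68 and 3.71 TS CPM against 71.6 and 68.5 NTS CPM. Liver was thus the organ with the most partner RNA and the lowest member NTS. Flrt1, inside Macrod1, had a ratio of 0.384 in kidney, where its own RNA was highest at 7.32 RPKM, and 3.41 to 5.47 in the other organs.

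The 93 members with no annotated other-strand gene within 10 kb were led by Wnt4, Wnt2b, Slc16a4, Gm31458 and Prf1. Wnt4 and Wnt2b encode signalling ligands, Slc16a4 a monocarboxylate transporter family member, and Prf1 the pore-forming perforin of cytotoxic lymphocytes. Wnt4 had its highest NTS level in spleen, at 73.18 and 64.5 CPM, and its lowest in liver, at 31.95 and 34.95 CPM. It had 58.46 and 45.45 NTS CPM in the kidney libraries, and 44.26 and 42.82 for lung. Its TS was highest in lung, at 29.2 and 31.3 CPM, where its RNA was also highest at 6.79 RPKM, and lowest in spleen, at 2.53 and 2.28 CPM, where its RNA was 0.16 RPKM. The nearest gene facing its end is Cdc42, 19.97 kb away, at 73.3 to 271 RPKM in the 4 organs. For the 93 members the median distance to the nearest counted gene facing their 3′ end was 36.0 kb, and 60.2% had one within 50 kb, against 76.3 kb and 37.5% for 3879 other genes without a neighbour within 10 kb. That facing gene was the higher expressed of the pair for 70 of 93 (75.3%) and for 35.1% of the others. Median RNA levels were 4.03 RPKM for the facing genes and 0.041 RPKM for the members, against 1.51 and 5.08 RPKM in the others.

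Damage-seq counts adducts that remained when the organ was taken, and it played no part in the choice of genes. Of 20832 genes tested for a difference between strands in reads per GG (edgeR with the library as block), 387 (1.86%) had fewer on the NTS and 7711 (37.0%) more, at an adjusted p under 0.05. Of 1325 members with enough reads to test, 207 (15.6%) had fewer on the NTS and 17 (1.28%) more, so that members made up 207 of the 387 genes with fewer NTS reads. The median log2 of NTS over TS was -0.15 in the members tested and 0.24 over all genes tested. The split depends on how the 2 strands are scaled: with TMM factors set on each strand, the median of all genes moved by -0.31 to -0.06, and 723 members had fewer and 3 more on the NTS, beside 4057 and 4734 of all genes. Relative to the median of all genes, members lay at -0.39 in both cases.

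The contrast was seen in each library. Pooled over the 1507 genes, NTS over TS reads per GG was between 0.901 and 0.958 in the 8 Damage-seq libraries, and over the other genes it was between 1.12 and 1.30. For the 426 genes inside a partner it was lower still, between 0.726 and 0.903. The 93 genes without a neighbour within 10 kb had 1.05 to 1.27.

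**Figure D5:**
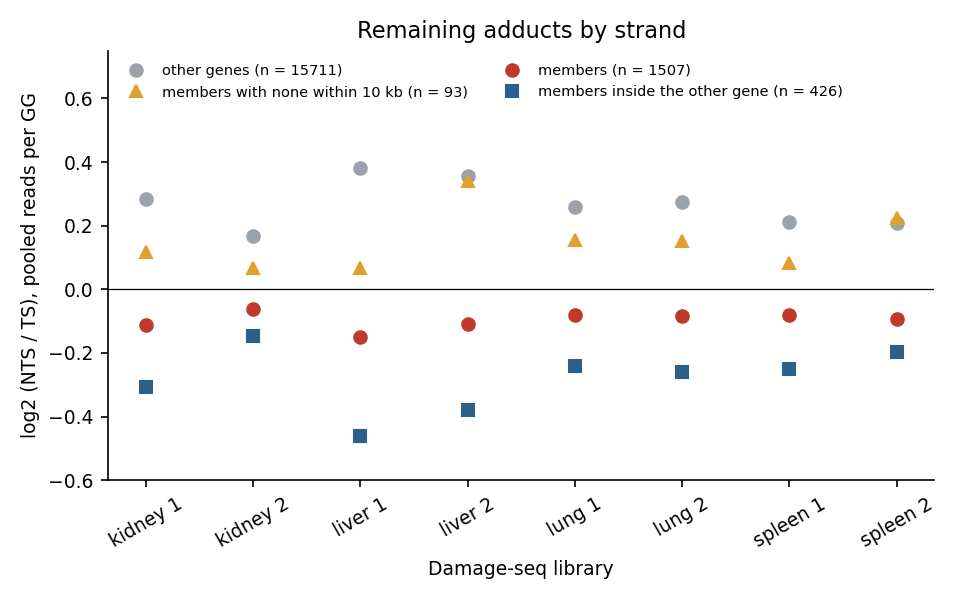
Log2 of NTS over TS Damage-seq reads per GG, pooled over the genes of each set, in each of the 8 libraries. Members lie below 0 in all 8 libraries and members inside another gene lower, while the other genes and the members with none within 10 kb lie above 0.

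By arrangement, fewer NTS adduct reads were called in 86 of 315 tested members inside a partner (27.3%), in 55 of 318 overlapping at the 3′ ends (17.3%), in 18 of 107 overlapping at the 5′ ends (16.8%), in 23 of 265 with facing ends within 10 kb (8.68%), and in 3 of 86 with none within 10 kb (3.49%). The medians of log2 NTS over TS ran from -0.34 through -0.17, -0.16 and -0.10 to -0.02 in the same order. The remaining arrangements did not follow that order: 8 of 58 members that contained their partner were called (13.8%, median -0.04), as were 1 of 42 with starts facing away (2.38%, median -0.12), 10 of 108 overlapping a gene without counts (9.26%, median -0.08) and 3 of 26 near one (11.5%, median -0.10). Among other genes between 0.232% and 1.95% were called in each arrangement. For a gene inside a partner, these NTS reads lie on the TS of that partner. Genes named as opposite-strand transcripts had 21 of 80 tested members with fewer and 0 with more NTS reads (edgeR), at a median of -0.30.

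The 5 members with the largest deficit on the NTS were 1700048M11Rik, Ltc4s, 4930579G18Rik, Gm48855 and Gm49189, of which 4 lie inside a partner. 1700048M11Rik, inside Smim11, had 19 and 15 TS reads against 7 and 5 NTS reads in the kidney libraries, 10 and 6 against 2 and 1 for liver, 13 and 17 against 5 and 3 for lung, and 4 and 7 against 1 and 1 for spleen. The TS was higher in all 8 libraries, and the difference was -2.07 ± 0.34 (log2 NTS minus TS ± SE, adjusted p = 3.47e-05, edgeR). The difference in Ltc4s, the leukotriene C4 synthase gene, was -1.94 ± 0.41 (adjusted p = 0.000618, edgeR) from 83 TS and 29 NTS reads, which is few for a single gene. 4930579G18Rik, inside Acin1, had -1.86 ± 0.28 from 206 and 63 reads (adjusted p = 1.6e-05, edgeR).

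Of the 12 most read members, 8 had fewer NTS adduct reads by this test, from -1.12 ± 0.18 in 2810425M01Rik (adjusted p = 3.56e-05, edgeR) to -0.09 ± 0.03 in Cdh23. In 4 of the 8 the call depended on the setting. Megf11 missed the threshold under 6 alternatives (among them without liver replicate 1, lung replicate 1 or spleen replicate 1), Cdh23 under 4 (among them without kidney replicate 1 or spleen replicate 2), D030028A08Rik under 3 (among them without lung replicate 1), and Lrrc4 without the GG offset. In 2810425M01Rik the NTS had 67 and 64 reads in the kidney libraries against 168 and 113 on the TS, 13 and 12 against 73 and 29 for liver, 54 and 52 against 77 and 94 for lung, and 13 and 26 against 22 and 31 for spleen. Lrrc4 had 2893 TS and 2638 NTS reads over more GG on the NTS, a difference of -0.36 ± 0.08 (adjusted p = 0.000697, edgeR). Slc5a10 and 4932443L11Rik did not pass the test, at -0.11 ± 0.11 and -0.18 ± 0.10. CT010467.1 and Ulk4 had more, at 0.47 ± 0.07 and 0.19 ± 0.04, but in Ulk4 the sign turned to -0.11 with TMM factors and to -0.035 without the GG offset.

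The largest excess on the NTS was in 1700030C12Rik, Gm33838, Tff1, 3632454L22Rik and 4930579J19Rik. That of 1700030C12Rik rests on 37 TS and 54 NTS reads over 197 and 123 GG, and that of Tff1 on 60 and 99 reads. Tff1 missed the threshold under 8 alternatives, 4930579J19Rik under 3 and 1700030C12Rik under 1. Gm33838, a lincRNA on chromosome 9 with no neighbour within 10 kb, had 1629 TS and 4768 NTS reads, a difference of 1.14 ± 0.09 (adjusted p = 1.18e-07, edgeR). Its 6.03 TS and 13.7 NTS adduct reads per GG stood far above the 0.336 TS reads per GG in Lrrc4, and its XR-seq reads were few, at 148 and 399. In 3632454L22Rik the excess of 0.79 ± 0.14 rests on the GG offset, with 3527 GG on the TS and 1815 on the NTS, and was -0.16 without it.

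Within organs, members with fewer NTS adduct reads numbered 132 in liver (9.96% of those tested, against 0.974% of all genes), 124 for lung (9.36% against 1.52%), 43 for kidney (3.25% against 0.408%) and 38 for spleen (2.87% against 0.590%). Those with more numbered 6, 27, 6 and 11 in the same order, against 32.7%, 27.1%, 20.8% and 13.1% of all genes. The strand difference itself differed between organs in 35 of 1325 members, where 10.3% of all genes did (F test in edgeR). Spleen had the fewest Damage-seq reads, and DESeq2 called 7, 69, 36 and 14 members in kidney, liver, lung and spleen in either direction.

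At imprinted loci with known antisense transcripts, 20 of 26 listed genes had enough XR-seq reads. Of these 20, 3 (15.0%) were in the group, beside 8.75% of all genes with at least 500 reads. Tsix, the antisense transcript of Xist, had 1088 TS and 6507 NTS reads, and its partner Xist had 8.77 to 40.6 RPKM against 0.09 or less for Tsix. Snhg14, which overlaps the end of Ube3a by 3613 bases, had 857 and 4083 reads, and Nap1l5, inside Herc3, had 134 and 929. All 3 had fewer Damage-seq reads on the NTS, with differences of -0.35 ± 0.12 in Tsix, -0.31 ± 0.07 in Snhg14 and -1.45 ± 0.57 in Nap1l5, the last at an adjusted p of 0.0499 (edgeR). Nap1l5 missed the threshold under 9 alternatives, Tsix under 4 and Snhg14 under 1 (without the GG offset, which also ended the call of Tsix). Airn and Kcnq1ot1, long antisense RNAs of other imprinted clusters, were not in the group. Of 27 nucleotide excision repair genes, 0 were in the group and 0 had more NTS than TS reads. Over all genes with at least 500 reads these shares were 8.75% and 14.0%, so few were to be counted in a list of this size.

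Few members were called as changed with cisplatin in RNA-seq. At an adjusted p under 0.05 against a log2 change of 0.4 (edgeR, 1116 members tested), 7 members rose in kidney and 3 in spleen, while 1 fell in liver and 2 in lung, which are 0.627%, 0.269%, 0.0896% and 0.179% of those tested, beside 3.12%, 0.136%, 2.71% and 0.366% of all genes tested. Members had little RNA, with a median of 0.11 RPKM over the 1507 genes against 4.81 in the other genes. That limits what can be called, so the shares do not compare how strongly members and other genes responded. Median log2 changes of members and of all genes tested were 0.15 and 0 (kidney), 0.33 and 0 (liver), 0.24 and 0.0061 (lung), 0 and -0.035 (spleen). In bulk samples fewer cells of a type and less RNA per cell cannot be told apart. Read sampling alone gives a dispersion index of 1, and the other RNA-seq pairs had 39.3 to 349. The lung and spleen control pairs had indices of 2.75 and 2.98, under the limit of 3, and each pair was summed to 1 sample. Their spread in the test is therefore taken from the other groups, and a lone control is assumed to vary like them.

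In kidney the largest rises were in Egr2, an immediate early transcription factor, Pkd1l3, a polycystin-like channel subunit, and Tctex1d4, a dynein light chain gene. Egr2 had 0.18 and 0.10 RPKM in control and 1.17 and 1.09 in cisplatin libraries, a change of 3.17 ± 0.38 (log2 ± SE, adjusted p = 0.00268, edgeR). The groups did not overlap. Pkd1l3 rose by 3.12 ± 0.53 and Tctex1d4 by 2.90 ± 0.61. The change in Tctex1d4 rests on 1 and 2 reads in control and 5 and 16 in cisplatin libraries. Its call missed the threshold under 6 alternatives and that of Pkd1l3 under 3. Nnat, Kcnrg, Cfap157 and Gp1ba also rose, by 2.49 to 2.68, and leaving out single kidney libraries left between 1 and 5 members called.

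In lung Cr2 and Cd8a fell. Cr2, the complement receptor of B cells, had 3.93 and 4.25 RPKM in the control libraries, which entered the test as 1 sample, and 0.74 and 0.42 in cisplatin libraries, a change of -2.87 ± 0.36 (adjusted p = 0.021, edgeR), and Cd8a, a T cell coreceptor, changed by -2.31 ± 0.33. Without either cisplatin library of lung, 0 members were called by edgeR, with 56 and 37 at an unadjusted p under 0.05. All 5 of 5 spleen lymphocyte markers were lower in lung after cisplatin, with a summed level of 88.5 to 90.2 RPKM in control and 18.9 to 26.5 in cisplatin libraries, and the part of these cells in the change was not tested.

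In spleen the 3 risers were Cela2a, Cel and Ctrl, which encode pancreatic digestive enzymes. Cela2a had 0.06 and 0.01 RPKM in control and 131 and 87.6 in cisplatin libraries. In the same libraries the 5 pancreas markers summed to 6.66 to 7.32 RPKM in control and 906 to 1156 in cisplatin, all 5 of 5 higher with cisplatin, and the part of pancreatic tissue in the change was not tested. The only call in liver was Gm20163, with 13 and 9 reads in control and 0 and 0 in cisplatin libraries, at least 2.68-fold lower when 3 reads per library are taken as the limit of detection.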

How the data were processed

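Damage-seq, XR-seq and RNA-seq files held raw counts, as deposited. Per the labels and the study's methods, the authors used cutadapt for trimming, BWA for alignment to mm10 and Picard for duplicates in Damage-seq and XR-seq, required GG at the adduct position, and counted reads per gene on the TS and NTS. RNA-seq reads were aligned with STAR and counted with featureCounts from a kit without strand marking. Versions are not given in the sources used here. A read in an overlap of 2 genes could be counted for both, and 1 line per Damage-seq and XR-seq file had no gene identifier and was dropped.

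Members and gene lists were chosen with earlier results of these data known. Positions came from GENCODE M21 and GG counts per strand from GRCm38 (RefSeq), within gene spans. CPM used reads on genes, and RPKM the exon length. Damage-seq strands were tested with edgeR 4.0.16 quasi-likelihood fits (library block, offset for library size and GG, default filter), and RNA-seq with glmTreat against a log2 change of 0.4 in 1 fit over 14 samples, after summing replicate pairs with a dispersion index of 3 or below (lung and spleen controls, 2.75 and 2.98). Adjusted p-values are Benjamini-Hochberg over all genes tested. DESeq2 1.42.0 was an alternative. Fits were tested on simulated data. SE is the size of the estimate over the square root of F. The study describes replicates as biological. RNA-seq p-values use the spread between replicates pooled over groups, to which the summed controls add none. In the Damage-seq fit over all organs a single strand term is shared. Its p-values therefore also take in differences of the strand effect between organs, beside the spread between replicates. Damage-seq pairs were kept as 2 samples although their indices were as low as 1.43 to 1.49 (spleen), 1.58 to 1.68 (liver), 2.57 to 2.66 (lung) and 2.85 to 3.11 (kidney). PCR reads are not independent molecules. The Wilson intervals are on counts of genes and cover counting error only. Named genes were the 12 most read members, the protein-coding members with the 6 largest ratios and the 5 highest RNA levels, the 2 nearest on either side of the limit, the 5 most read without a neighbour, the 5 largest Damage-seq differences in each direction and 3 largest RNA-seq changes per organ and direction among called members, the miRNA, imprinted and repair genes among the members, and their partners, and others are said to be chosen later. The partners of some named genes are not reported here.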

Additional observations from a re-analysis of the deposited data

Results flagged for a closer look

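The Damage-seq strand difference differed between organs in 35 members by the F test of edgeR. Among the members named in the report it did so in 4. In Lrrc4 (adjusted p = 0.0172) the log2 difference of NTS minus TS was -0.65 in spleen, -0.54 in liver, -0.30 in lung and -0.07 in kidney. In Lysmd4 (adjusted p = 0.0398) it was -1.03 in liver, -0.98 in lung, -0.57 in spleen and -0.11 in kidney. In CT010467.1 (adjusted p = 0.0184) it was 0.70 in lung, 0.45 in liver, 0.35 in spleen and 0.33 in kidney, and in Gm33838 (adjusted p = 0.00188) 1.40 in liver, 1.22 in lung, 1.18 in kidney and 0.61 in spleen.

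In XR-seq, 101 members had the NTS below the TS in both libraries of one organ and above it in both libraries of another, a difference that was not tested because XR-seq strands chose the members.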

How the results depend on the processing

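The number of members was between 1228 and 1523 under the other rules and between 1432 and 1494 without single libraries, and 1445 of the 1507 were kept when libraries weighed equally. The share overlapping an other-strand gene was 40.5% where the other gene had to cover 50 percent, 59.0% with protein-coding genes only and 93.8% within 10 kb. In Damage-seq the members called moved to 726 with TMM factors (723 fewer and 3 more on the NTS), and those with more NTS reads to 35 without the GG offset. Leaving out single libraries gave 182 to 212 members called, 163 to 198 with fewer and 13 to 19 with more, and keeping 1 member per partner, an alternative chosen after seeing the data, left the counts within 1.5 times. Summing the liver, lung and spleen Damage-seq pairs as was done for RNA-seq, also chosen after seeing the data, gave 178 members called, 165 with fewer and 13 with more, and Slc16a4, Tctex1d4, Nap1l5, D030028A08Rik, Gpr22 and Tff1 lost their call. Within organs DESeq2 called 7 members (kidney), 69 (liver), 36 (lung) and 14 (spleen), and without single libraries of the organ 3 to 36, 49 to 76, 105 to 109 and 10 to 14, with the lowest counts without kidney replicate 1, liver replicate 1, lung replicate 2 and spleen replicate 2. The sign turned in 3632454L22Rik without the GG offset (-0.16), in Ulk4 without it (-0.035) and with TMM (-0.11), and in Srrm4 with TMM (-0.29). The cause of these shifts was not tested.

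RNA-seq calls depended on the setting. For kidney, liver and lung in turn, they were 12, 6 and 4 with DESeq2, 17, 10 and 13 without the filter, 24, 13 and 21 with each library as a replicate, and 21, 8 and 4 against a change of 0. With only the organ's own libraries, liver had 0 (30 at an unadjusted p under 0.05) and lung 50. Without single libraries, counts ranged from 1 to 5 in kidney, 0 to 18 in liver, 0 to 2 in lung and 3 to 3 in spleen. In liver 18 members were called without cisplatin replicate 1 and 0 without control replicate 1 (88 at an unadjusted p under 0.05), and in kidney 1 each without control replicate 2 or cisplatin replicate 1. With the replicate block, 33, 15, 31 and 5 members were called in kidney, liver, lung and spleen. The replicate numbers give only 2 pairs per organ, whose deviations correlated at 0.341, 0.263, 0.0611 and 0.314, so they were not taken to pair the samples. Median RNA levels of members were 0.120, 0.0464, 0.154 and 0.165 as CPM in kidney, liver, lung and spleen, another unit, and 0.0719 RPKM in lung control libraries alone. Damage-seq depth limits single genes: the median member had 423 reads over 8 libraries and a median SE of 0.18.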
